A study of Mus musculus with 6 samples.

Results

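The Myc, Max and Mxd network was followed in jejunum, a stretch of small intestine between duodenum and ileum, through 24 probe sets of 10 genes: Myc, Mycl, Mycn, Max, Mxd1, Mxd3, Mxd4, Mxi1, Mnt and Mlx. These were all the probe sets, of 45101 on the Affymetrix Mouse 430 2.0 array, whose platform annotation names exactly 1 gene and for which that gene belongs to the network. The array named 18194 genes in this way. The double knockout group held 3 mice (mice 1, 2 and 3) that were deficient in Ifrd1 (TIS7) together with its relative Ifrd2 (SKMc15), which the series title calls transcriptional regulators, and the wild type group held 3 mice (mice 1, 3 and 4). All were male, on the C57BL/6 background, 7 to 10 weeks old and housed singly, and all ate a high-fat diet with 42% of energy from milk fat and, as labelled, 0.2% from cholesterol. The extraction notes give 3 weeks on the diet before freezing, the housing notes 3 to 8 weeks, and each array holds the RNA of 1 mouse. The labels give neither the exons removed nor any restriction of the deletions to a cell type.

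Myc proteins bind the DNA motif called the E-box as pairs with Max, and activate genes of growth, nucleolar ribosome assembly and nucleotide synthesis. Mxd proteins, Mxi1 and Mnt also pair with Max, bind the same motif and recruit the Sin3-HDAC corepressor, so that the balance between both kinds of pair sets the output of shared target genes. Mlx joins the network to sugar-sensing partners. In the intestine, Myc is known for its activity in the dividing crypt, and Mxd1 for its presence in differentiating cells.

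The E-box is shown first because 4 network genes carry it in their own promoters. The motif searched was CACGTG, which reads the same on both strands, in windows of 300 bases (250 before to 50 after each gene start, RefSeq, build GRCm38.p6). Promoters were listed for 9 of the 10 genes, Myc being the exception. The motif was found in those of Max, Mxd4, Mnt and Mlx, 4 of 9 genes, against 8.09% of 27025 genes with a listed promoter. Each line gives 50 bases of the gene's own strand, with the E-box in capitals.
Max: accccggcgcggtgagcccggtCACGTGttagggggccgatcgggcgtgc
Mxd4: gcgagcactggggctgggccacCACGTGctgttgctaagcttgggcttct
Mnt: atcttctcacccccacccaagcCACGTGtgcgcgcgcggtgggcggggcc
Mlx: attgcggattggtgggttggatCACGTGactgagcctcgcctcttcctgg
These stretches lie at chr12:76962224-76962273 (minus strand) for Max, chr5:34187902-34187951 (minus strand) for Mxd4, chr11:74830779-74830828 (plus strand) for Mnt and chr11:101087228-101087277 (plus strand) for Mlx. The motif began 3 bases before the gene start in Max, 40 in Mlx, 123 in Mnt and 219 in Mxd4. A match describes the letters of these windows and is not evidence of binding.

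Both targeted transcripts were low in the double knockout jejunum. Ifrd2 averaged 2.66 ± 0.08 on the log2 scale in double knockout and 8.38 ± 0.21 in wild type mice, and Ifrd1 averaged 5.30 ± 0.83 and 9.92 ± 0.08 (SD, n = 3 each). Enterocyte markers stood near the top of the scale, as with Fabp1, a fatty acid binding protein picked after its values were seen, at 14.16 in double knockout and 14.21 in wild type jejunum. The groups also differed in a measure of RNA quality: the log2 difference between the 3′ and 5′ control probe sets of Gapdh and Actb was 0.60, 0.41 and 0.61 in double knockout mice 1, 2 and 3, and 0.35, 0.49 and 0.36 in wild type mice 1, 3 and 4. In a piece of tissue, fewer cells of a type and less RNA per cell cannot be told apart.

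Of the 24 probe sets, 15 exceeded 4 on the log2 scale on 3 or more of the 6 arrays and were tested, and they covered 9 genes. The 9 that did not pass this filter lay between 1.45 and 3.34 on all 6 arrays, a range in which the values hold little information. They were all 3 probe sets of Mxd3, a repressor partner of Max linked to dividing cells, 2 of Mycl, 2 of Mycn, 1 of Mxd4 and 1 of Mnt. Mxd3 stayed at or below 3.23 on every array, so its change could not be tested.

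No member of the network passed the test. With limma fitted to 18013 probe sets and Benjamini-Hochberg adjustment over all of them, 0 of the 15 network probe sets passed an adjusted p of 0.05, against 4.47% of all probe sets tested. At an unadjusted p under 0.05, 8 of the 15 were lower and 0 higher in double knockout jejunum, where 11.8% of all probe sets were lower and 15.3% higher. The 8 belong to 5 genes, Mxd1, Mxd4, Max, Mnt and Mycn, so they are not independent of each other. Double knockout and wild type values did not overlap for 6 of the 15, all lower, against 14.8% of all probe sets lower and 19.5% higher without overlap. One Mxd1 probe set (1422002_at) passed the filter through all 3 wild type arrays and 1 double knockout array; among the 14 above the minimum on all 6 arrays, 7 were lower at that p and 5 were lower without overlap. These counts describe the probe sets that passed the filter and support no call.

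**Figure D1:**
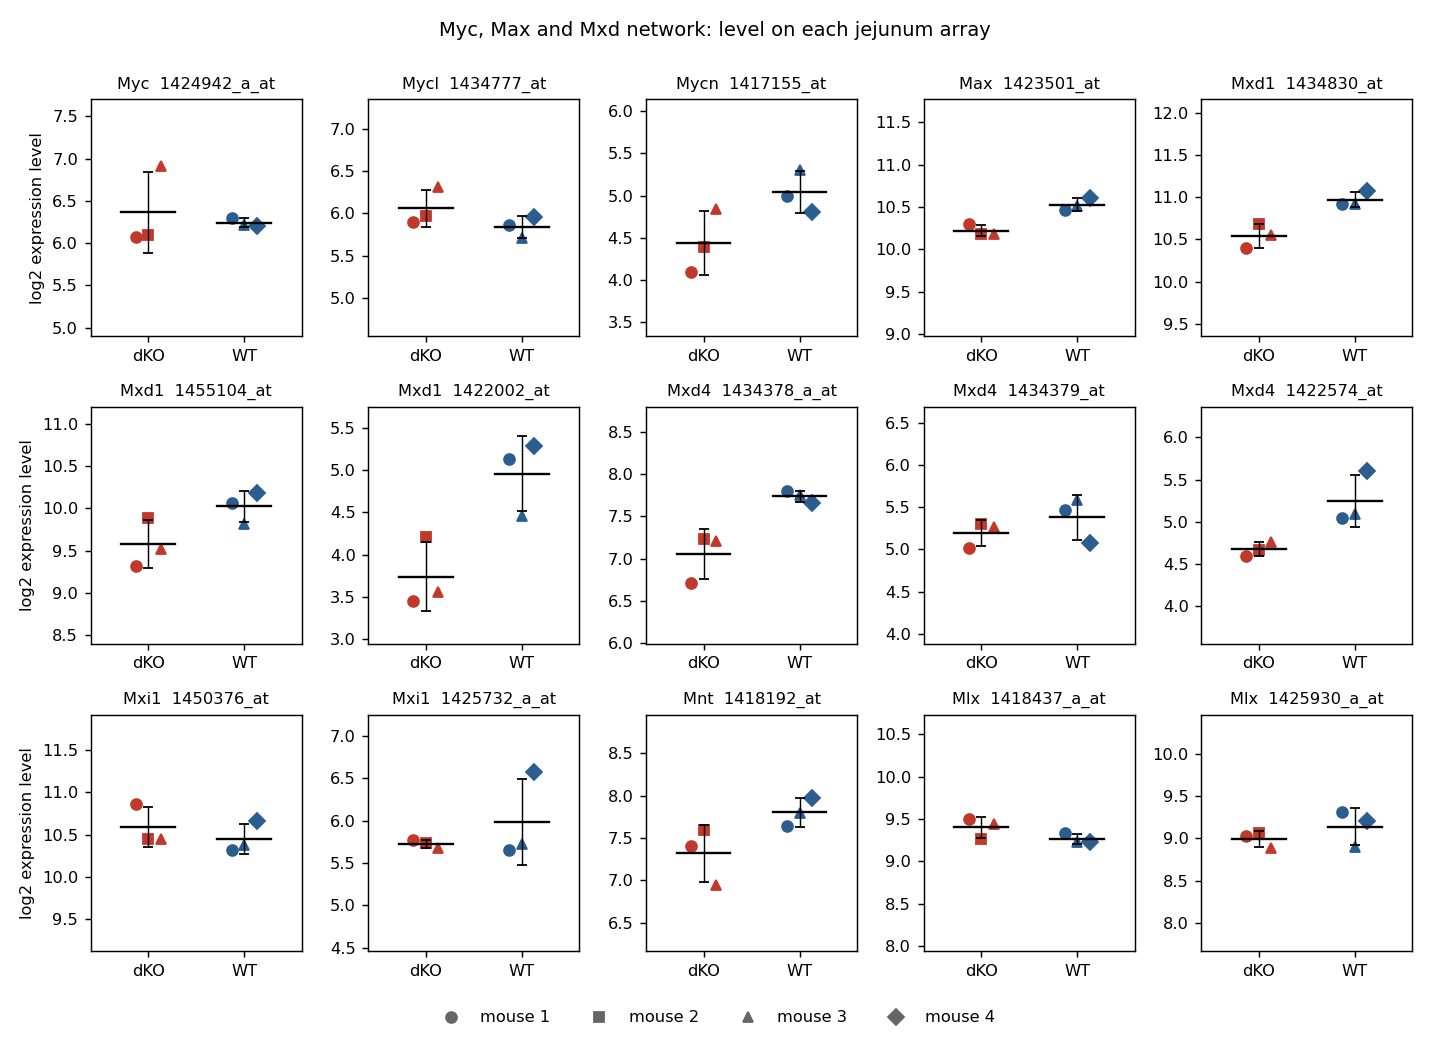
Log2 expression level of the 15 tested network probe sets on each array, double knockout (dKO, red) left of wild type (WT, blue); marker shapes give the mouse number, horizontal bars the mean and error bars the SD (n = 3). Every panel spans the same log2 range, and a reader should see Myc raised in double knockout mouse 3 alone and Max, Mxd1 (1434830_at) and Mxd4 (1434378_a_at) lower in all 3 double knockout mice.

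Myc itself did not separate the groups. Its only probe set (1424942_a_at) read 6.08, 6.10 and 6.91 in double knockout mice 1, 2 and 3, and 6.30, 6.22 and 6.21 in wild type mice 1, 3 and 4. Double knockout mouse 3 was the highest of the 6 mice, while double knockout mice 1 and 2 were the lowest. The log2 fold change was 0.12 ± 0.23 (SE), with a 95% interval of -0.42 to 0.66 and a limma adjusted p of 0.757. That interval reaches from 0.747 to 1.58 times the wild type level, so the data leave room for a rise or a fall of Myc within those bounds. Without double knockout mouse 3 the sign turned (-0.15 ± 0.09, limma adjusted p = 0.409), and it also turned with the 3′ to 5′ difference as a covariate (-0.06 ± 0.31).

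A few genes shared the profile of Myc over the mice. Among 9673 other tested genes, each centred on its own mean, the 5 nearest to Myc by the root mean square difference over the 6 arrays were Tiparp (0.0731), Cipc (0.0888), Ifnar1, a type I interferon receptor subunit (0.0896), Id2 (0.0987) and Gtf2h3, a subunit of the transcription factor TFIIH (0.109), where the median gene lay at 0.323. Tiparp, a poly-ADP-ribose polymerase induced by the aryl hydrocarbon receptor, read 8.79, 8.64 and 9.58 in double knockout mice 1, 2 and 3, and 8.80, 8.84 and 8.84 in wild type mice 1, 3 and 4. Id2, an inhibitor of basic helix-loop-helix factors, read 9.76, 9.91 and 10.76 in the double knockout mice and 9.89, 9.85 and 10.02 in the wild type mice. Cipc, an inhibitor of the circadian Clock protein, read 9.10, 9.24 and 9.94 in the double knockout mice and 9.15, 9.24 and 9.28 in the wild type mice. These genes were likewise highest in double knockout mouse 3, which is what the measure of likeness selects.

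The other Myc proteins did not pass either. Mycl, a paralogue of Myc, read 5.90, 5.97 and 6.31 in double knockout mice 1, 2 and 3, and 5.86, 5.71 and 5.96 in wild type mice 1, 3 and 4 on its tested probe set (1434777_at). The groups overlapped, by the narrow margin between double knockout mouse 1 and wild type mouse 4, and the log2 fold change was 0.22 ± 0.13 (95% interval -0.10 to 0.54, limma adjusted p = 0.337). Without double knockout mouse 3 it was 0.094. Mycn, the paralogue best known from neural development, was dim. It read 4.09, 4.39 and 4.84 in the double knockout mice, and 4.998, 5.30 and 4.81 in the wild type mice (1417155_at). Double knockout mouse 3 lay just above wild type mouse 4, so the groups overlapped, and the log2 fold change was -0.60 ± 0.21 (limma adjusted p = 0.142).

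Max, the shared partner of Myc and the Mxd repressors, was slightly lower in each double knockout mouse. Its probe set (1423501_at) read 10.30, 10.19 and 10.18 in double knockout mice 1, 2 and 3, and 10.46, 10.52 and 10.61 in wild type mice 1, 3 and 4. The groups did not overlap and each was tight, with an SD of 0.065 in double knockout and 0.075 in wild type mice. The log2 fold change was -0.31 ± 0.09 (95% interval -0.51 to -0.10), or 0.809 times the wild type level, with a limma adjusted p of 0.0865, which did not pass. Max and Mycn lie on chromosome 12, which also carries Ifrd1.

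Mxd1 (Mad1), the repressor best known from cells that leave the cell cycle, was lower on all 3 of its probe sets without passing the test on any. The brightest (1434830_at) read 10.40, 10.69 and 10.55 in double knockout mice 1, 2 and 3, and 10.92, 10.92 and 11.08 in wild type mice 1, 3 and 4. All 3 double knockout values lay under all 3 wild type values, and the log2 fold change was -0.43 ± 0.10 (95% interval -0.68 to -0.18, limma adjusted p = 0.0677). The next probe set (1455104_at) read 9.32, 9.89 and 9.53 in the double knockout mice and 10.07, 9.82 and 10.18 in the wild type mice. Here double knockout mouse 2 passed wild type mouse 3, so the groups overlapped, while the size of the difference was close to that of the brightest probe set (-0.45 ± 0.17, limma adjusted p = 0.155).

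The dimmest tested probe set of Mxd1 (1422002_at) read 3.45, 4.21 and 3.56 in the double knockout mice and 5.14, 4.45 and 5.29 in the wild type mice. It gave the largest difference of the network, -1.22 ± 0.28 on the log2 scale (limma adjusted p = 0.0594), without overlap. It also passed the filter mainly through the wild type arrays, with 4 of 6 arrays above the minimum, and its size depended on how low values were treated: with values under 4 raised to 4 the difference was -0.89. With the 3′ to 5′ difference as a covariate the 3 Mxd1 probe sets gave -0.31, -0.13 and -0.64, from the brightest to the dimmest.

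Mxd4 (Mad4), a second repressor of this family, was also lower on its tested probe sets, unevenly. The brightest (1434378_a_at) read 6.71, 7.24 and 7.21 in double knockout mice 1, 2 and 3, and 7.80, 7.75 and 7.66 in wild type mice 1, 3 and 4. Wild type mice lay close together (SD 0.07) and above every double knockout mouse, of which mouse 1 was the lowest. The log2 fold change was -0.68 ± 0.15 (95% interval -1.05 to -0.31), or 0.623 times the wild type level, and its limma adjusted p of 0.0578 was the smallest of the network. Another probe set (1422574_at) read 4.60, 4.67 and 4.76 in the double knockout mice and 5.04, 5.10 and 5.60 in the wild type mice, again without overlap (-0.57 ± 0.16, limma adjusted p = 0.0870). The remaining tested one (1434379_at) overlapped, with 5.02, 5.30 and 5.26 in the double knockout mice and 5.47, 5.59 and 5.08 in the wild type mice (-0.19 ± 0.16, limma adjusted p = 0.475).

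Whether Mxd1, Mxd4 and Max passed depended on the settings. With only probe sets above a log2 value of 6 tested, Mxd4 (1434378_a_at) and Mxd1 (1434830_at) passed at limma adjusted p-values of 0.0400 and 0.0448. With a variance prior that follows the mean level and resists outliers, 4 passed: Mxd1 (1434830_at) at 0.0256, Mxd4 (1434378_a_at) at 0.0320, Mxd1 (1422002_at) at 0.0325 and Max at 0.0352. Calls over all probe sets also rose, from 805 in the main fit to 1216 with the stricter filter and 1730 with that variance prior. In the 6 fits that left out 1 mouse each, 0 of the 15 passed, and 32 to 435 probe sets were called in all.

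**Figure D2:**
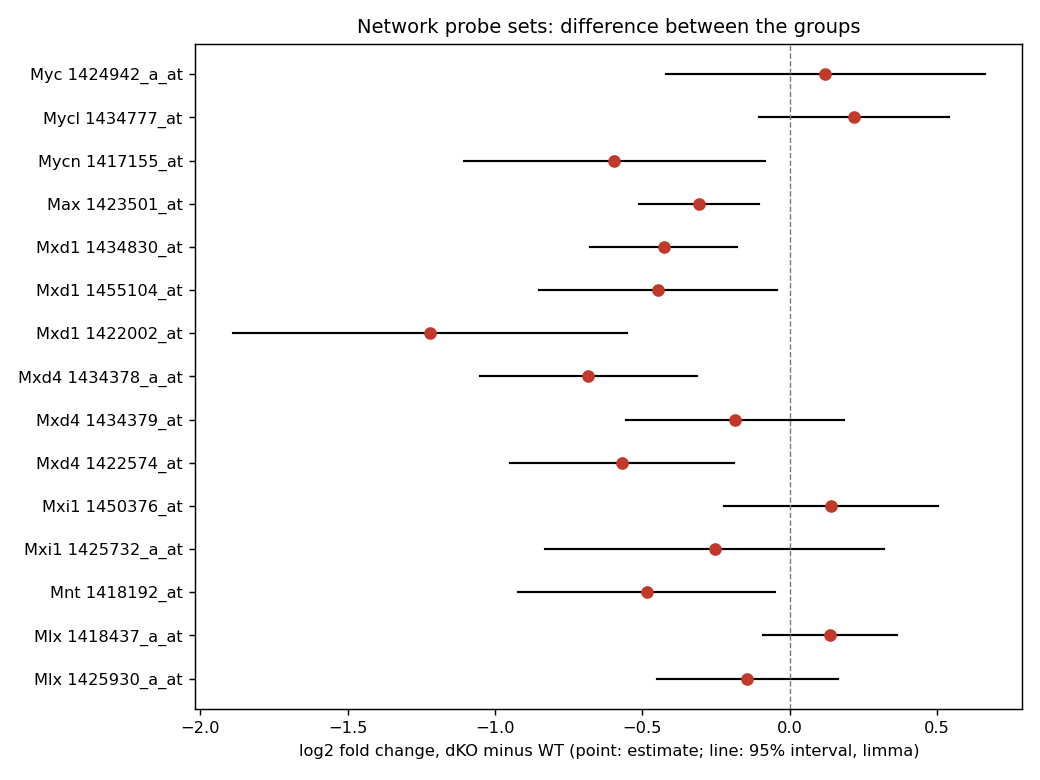
Log2 fold change, double knockout minus wild type, of the 15 tested network probe sets (points) with 95% intervals from limma (lines); the dashed line marks no change. The intervals of Mxd1, Max, Mnt, Mycn and of Mxd4 on 1434378_a_at and 1422574_at lie below 0, and those of Myc, Mycl, Mxi1, Mlx and Mxd4 on 1434379_at include it; none passed after adjustment.

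Mxi1 (Mad2), another Max-binding repressor, gave no common direction. Its brighter probe set (1450376_at) read 10.87, 10.45 and 10.45 in double knockout mice 1, 2 and 3, and 10.32, 10.37 and 10.66 in wild type mice 1, 3 and 4. The groups overlapped, and the log2 fold change was 0.14 ± 0.15 (95% interval -0.22 to 0.51, limma adjusted p = 0.584). Double knockout mouse 1 was the highest, and without it the difference was 0.0033. The dimmer one (1425732_a_at) read 5.77, 5.74 and 5.67 in the double knockout mice and 5.65, 5.72 and 6.57 in the wild type mice. Wild type mouse 4 alone stood out there, and without it the difference of -0.25 ± 0.24 became 0.04 ± 0.10.

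Mnt, the widely expressed Max partner that opposes Myc in cycling and resting cells alike, read 7.41, 7.60 and 6.95 in double knockout mice 1, 2 and 3 on its tested probe set (1418192_at), and 7.64, 7.80 and 7.97 in wild type mice 1, 3 and 4. The groups did not overlap, although double knockout mouse 2 and wild type mouse 1 nearly met, and double knockout mouse 3 was the lowest. The log2 fold change was -0.49 ± 0.18 (limma adjusted p = 0.153). Without double knockout mouse 3 it was -0.30, with a limma adjusted p of 0.290, and with the 3′ to 5′ covariate it was -0.29.

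Mlx, the Max-like partner of the sugar-sensing factors Mlxip and Mlxipl, was bright and gave differences of opposite sign on its probe sets. The one with the smaller SDs (1418437_a_at) read 9.50, 9.27 and 9.44 in double knockout mice 1, 2 and 3, and 9.34, 9.23 and 9.23 in wild type mice 1, 3 and 4. The other (1425930_a_at) read 9.03, 9.07 and 8.88 in the double knockout mice and 9.31, 8.90 and 9.20 in the wild type mice. The log2 fold changes were 0.14 ± 0.10 and -0.14 ± 0.13, both with intervals that include 0 (-0.09 to 0.36 and -0.45 to 0.16), and limma adjusted p-values of 0.394 and 0.505.

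Genes known to be activated by Myc rose in larger number than they fell in double knockout jejunum, while Myc itself did not pass. Of 72 listed genes 65 were measured, each by its brightest probe set, and 25 rose, 1 fell and 39 did not pass, where 3.18% of 9674 genes tested rose and 1.6% fell. Positive fold changes were seen for 62 of the 65, against 58.1% of all genes tested, and the list median was 0.51 on the log2 scale, against 0.05 over all genes tested. This list holds nucleolar genes whose rise in these arrays was known when it was written, so its direction is not independent evidence. The mean of the 65 genes, set against the wild type mean, was 0.52, 0.48 and 0.64 in double knockout mice 1, 2 and 3, and -0.05, 0.08 and -0.03 in wild type mice 1, 3 and 4. Double knockout mice 1 and 2, with Myc at 6.08 and 6.10, had target means above those of every wild type mouse. Their Myc values lay close under the 6.30, 6.22 and 6.21 of wild type mice 1, 3 and 4. The part of Myc in the target values was not tested.

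**Figure D3:**
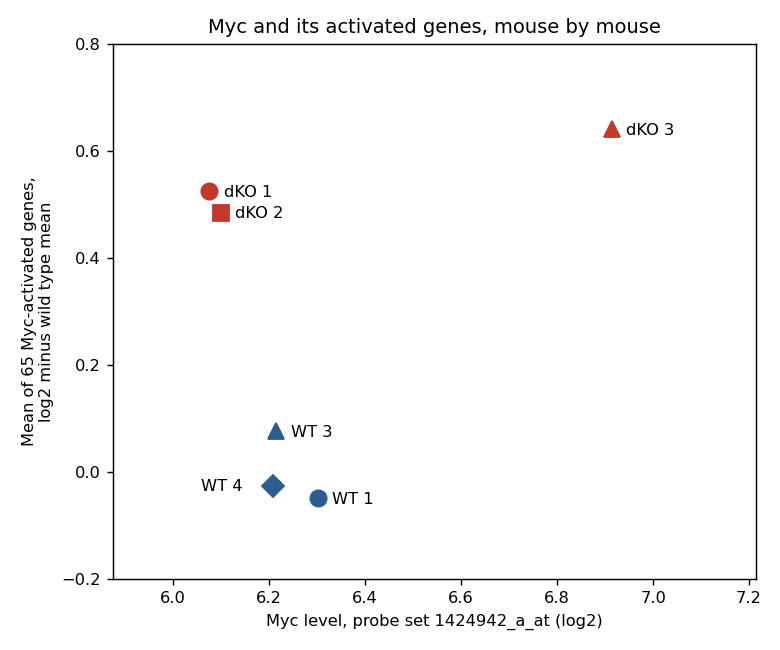
Mean log2 level of the 65 measured Myc-activated genes minus the wild type mean (vertical axis) against the log2 level of Myc (horizontal axis), 1 point per mouse, double knockout (dKO) in red and wild type (WT) in blue. The target mean lies between 0.48 and 0.64 in the double knockout mice and between -0.05 and 0.08 in the wild type mice, while double knockout mice 1 and 2 have the lowest Myc values and double knockout mouse 3 the highest.

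Among the activated genes that rose, Grwd1, a ribosome assembly and chromatin factor, read 7.23, 6.86 and 7.12 in double knockout mice 1, 2 and 3, and 5.99, 6.05 and 6.08 in wild type mice 1, 3 and 4 (log2 fold change 1.03 ± 0.11, limma adjusted p = 0.0151). Srm, which makes the polyamine spermidine, read 6.96, 7.52 and 7.33 in the double knockout mice and 5.40, 5.53 and 5.96 in the wild type mice, the largest rise of the list (1.64 ± 0.20, limma adjusted p = 0.0173). Cad, the enzyme that starts pyrimidine synthesis, rose by 1.02 ± 0.13 and Nop56, a nucleolar protein that guides rRNA methylation, by 0.84 ± 0.11, both with a limma adjusted p of 0.0189. The gene that fell, Tert, the catalytic subunit of telomerase, read 5.42, 5.77 and 5.67 in the double knockout mice and 6.26, 6.50 and 6.52 in the wild type mice (-0.81 ± 0.13, limma adjusted p = 0.0277). It was named after its values were seen. Not every known target moved: Ldha, lactate dehydrogenase, stood at 0.01 ± 0.08 and Pcna, the replication clamp, at -0.05 ± 0.11, and both were likewise picked after their values were seen.

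Fewer activated genes rose, and fewer probe sets were called in all, when any 1 mouse was left out. By the same limma test, 3, 16 and 0 activated genes rose without double knockout mouse 1, 2 or 3. Without wild type mouse 1, 3 or 4 the number was 0, 1 and 2, and with the 3′ to 5′ difference as a covariate 0. Over all probe sets, the 805 calls became 204, 435 and 80 without double knockout mouse 1, 2 or 3. They became 71, 69 and 32 without wild type mouse 1, 3 or 4, and 17 with the covariate. The list median stayed between 0.48 and 0.57 in the fits without 1 mouse and was 0.43 with the covariate. The E-box motif stood in a listed promoter of 26.1% of 23 activated genes that rose and of 32.4% of 34 that did not pass, against 8.09% of all genes.

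Markers of dividing cells moved with the activated genes. Of 11 measured, 6 rose and 0 fell, where 3.18% of all genes tested rose, all 11 had positive fold changes, against 58.1% of all genes, and the median was 0.55. Over all cell type lists, these 6 calls became 1, 4 and 0 without double knockout mouse 1, 2 or 3, and 0 without any 1 wild type mouse. They became 0 with the 3′ to 5′ covariate and with the mouse number as a block. The block takes the difference from mice 1 and 3 alone, the only numbers in both groups. Calls over all probe sets also fell, from 805 to between 32 and 435 without 1 mouse. They fell to 17 with the covariate and 13 with the block. Ube2c, a ubiquitin-conjugating enzyme of mitosis, rose by 0.77 ± 0.11, Cdk1, the mitotic kinase, by 0.60 ± 0.10, Bub1, of the spindle checkpoint, by 0.81 ± 0.14 and Top2a, a topoisomerase, by 0.55 ± 0.10 in log2 units (their adjusted p-values by limma were 0.0263, 0.0295, 0.0330 and 0.0344). The summed unlogged level of all 11 markers of dividing cells ran from 5780 to 6630 in double knockout mice and from 3978 to 4380 in wild type mice. This list does not hold Mcm5, Mcm4 and Pcna, replication genes of the activated list, named here after their values were seen. Mcm5 rose by 0.52 ± 0.08 (limma adjusted p = 0.0277), while Mcm4 at 0.11 ± 0.13 and Pcna at -0.05 ± 0.11 did not pass. Crypt stem cell markers had 0 of 10 past the threshold (median 0.17, summed level 6084 to 6601 in double knockout and 5121 to 6551 in wild type mice), with Ascl2, a stem cell transcription factor, at 0.81 ± 0.19 and Rnf43, which dampens Wnt signalling, at -0.57 ± 0.16 (limma adjusted p 0.0646 and 0.0925). Enterocyte markers also had 0 of 14 past the threshold, with 13 negative fold changes, where 4049 of 9674 genes tested were negative. Without overlap, 9 of the 14 were lower, against 1370 of the 9674. The enterocyte median was -0.10, with a summed level of 140800 to 147723 in double knockout and 155164 to 158787 in wild type mice. Their smallest p-values were those of Apob, which builds chylomicrons, at -0.33 ± 0.08 and lactase, Lct, at -0.29 ± 0.08 (limma adjusted p 0.0699 and 0.0847). Lgr5, the defining stem cell receptor, also named outside the rule, averaged 5.44 in double knockout and 5.34 in wild type jejunum. All 9 measured markers of fibroblasts and matrix leaned upward, against 58.1% of all genes tested, with 0 past the threshold. Their median was 0.47, with a summed level of 6093 to 7960 in double knockout and 3985 to 6589 in wild type mice. The part of cell makeup and of the 3′ to 5′ difference in the values of Mxd1, Mxd4, Max and the activated genes was not tested.

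Genes known to be repressed by Myc did not pass. Of 11 measured, 0 passed, where 3.18% of all genes tested rose and 1.6% fell, and the median was -0.09. Negative fold changes were seen for 7 and positive ones for 4, where 4049 of 9674 genes tested were negative. Without overlap, 5 were lower and 3 higher, against 1370 and 2178 of the 9674. The cell cycle inhibitors Cdkn1b (p27) and Cdkn2c (p18) had the smallest p-values and opposite signs, at -0.55 ± 0.13 and 0.34 ± 0.10 (limma adjusted p 0.0661 and 0.0910). Cdkn1b read 9.73, 9.69 and 9.37 in double knockout mice 1, 2 and 3, and 10.31, 10.02 and 10.10 in wild type mice 1, 3 and 4, without overlap.

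Of the chromatin partners through which Myc activates genes, 4 of 12 measured rose and 0 fell, where 3.18% of all genes tested rose and 1.6% fell. The paired helicases Ruvbl1 and Ruvbl2 rose by 0.80 ± 0.09 and 1.04 ± 0.21, the acetyltransferase Kat2a (Gcn5) by 0.58 ± 0.09, and Smarcb1, a subunit of the SWI/SNF remodeller, by 0.39 ± 0.08 on the log2 scale, with limma adjusted p-values of 0.0151, 0.0489, 0.0282 and 0.0450. Ruvbl1 read 7.14, 7.06 and 7.05 in double knockout mice 1, 2 and 3, and 6.34, 6.34 and 6.16 in wild type mice 1, 3 and 4. Ruvbl2 was dim, at 4.74, 5.54 and 5.46 in the double knockout mice and 4.15, 4.20 and 4.27 in the wild type mice. Its wild type values lay just above the filter minimum of 4. The list median was 0.32, against 0.05 over all genes tested.

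The corepressor that Mxd proteins, Mxi1 and Mnt recruit showed no common shift. Of 12 measured subunits of Sin3-HDAC, 1 fell and 0 rose, against 1.6% and 3.18% of all genes tested, with a median of -0.03. Arid4a, a DNA-binding subunit encoded on chromosome 12, fell by 0.58 on the log2 scale (SE 0.11, limma adjusted p = 0.0436), and the deacetylase Hdac1, added after its values were seen, stood at 0.57 ± 0.14 (limma adjusted p = 0.0699). The 5 calls among partners and regulators, the 4 coactivators and Arid4a, became 0 with the 3′ to 5′ covariate. They became 2, 1 and 0 without double knockout mouse 1, 2 or 3, and 0 without any 1 wild type mouse. The 805 calls over all probe sets fell too, to 17 with the covariate and to between 32 and 435 without 1 mouse.

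None of 15 measured genes of Myc protein turnover passed (median 0.11), where 3.18% of all genes tested rose and 1.6% fell. Without overlap, 7 were higher and 2 lower, against 2178 and 1370 of the 9674 genes tested. Skp2, a ubiquitin ligase subunit that acts on Myc and on Cdkn1b, stood at 0.48 ± 0.10 and Aurka, a mitotic kinase that shields Mycn from degradation, at 1.01 ± 0.23 (limma adjusted p 0.0544 and 0.0583). Aurka read 6.28, 6.45 and 7.19 in double knockout mice 1, 2 and 3, and 5.56, 5.68 and 5.64 in wild type mice 1, 3 and 4, and was highest in double knockout mouse 3, as Myc was. Of 11 listed Wnt and E2F regulators of Myc transcription, 6 were measured, all of the Wnt pathway, so E2F genes were not tested here. Of the 6, 0 passed (median 0.01). Bcl9l, a coactivator of beta-catenin, stood at 0.41 ± 0.12 and Axin2, a Wnt target and feedback inhibitor, at 0.35 ± 0.12 (limma adjusted p 0.0888 and 0.123).

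Other E-box binding and partner proteins had 0 of 9 past the threshold (median -0.03), where 3.18% of all genes tested rose and 1.6% fell. Zbtb17 (Miz1), through which Myc represses genes, had the smallest p of them, with 6.06, 5.90 and 6.19 in double knockout mice 1, 2 and 3, and 5.62, 5.58 and 5.38 in wild type mice 1, 3 and 4 (0.52 ± 0.11, limma adjusted p = 0.0541). The groups did not overlap. Mlxipl (ChREBP), the sugar-sensing partner of Mlx, stood at 0.23 ± 0.12 (limma adjusted p = 0.288). Of 14 measured targets of Mlx with these partners 0 passed, 12 had positive fold changes (58.1% over all genes tested) and the median was 0.35, with the lipid synthesis enzymes Acaca at 0.29 ± 0.10 and Elovl6 at 0.38 ± 0.13 (limma adjusted p 0.121 and 0.123). The mean of these 14 genes, set against the wild type mean, was 0.02, 0.32 and 0.74 in double knockout mice 1, 2 and 3, and -0.12, 0.29 and -0.17 in wild type mice 1, 3 and 4, so the groups overlapped and double knockout mouse 3 was again the highest. The list median was 0.22 without that mouse and 0.21 with the 3′ to 5′ covariate.

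**Figure D4:**
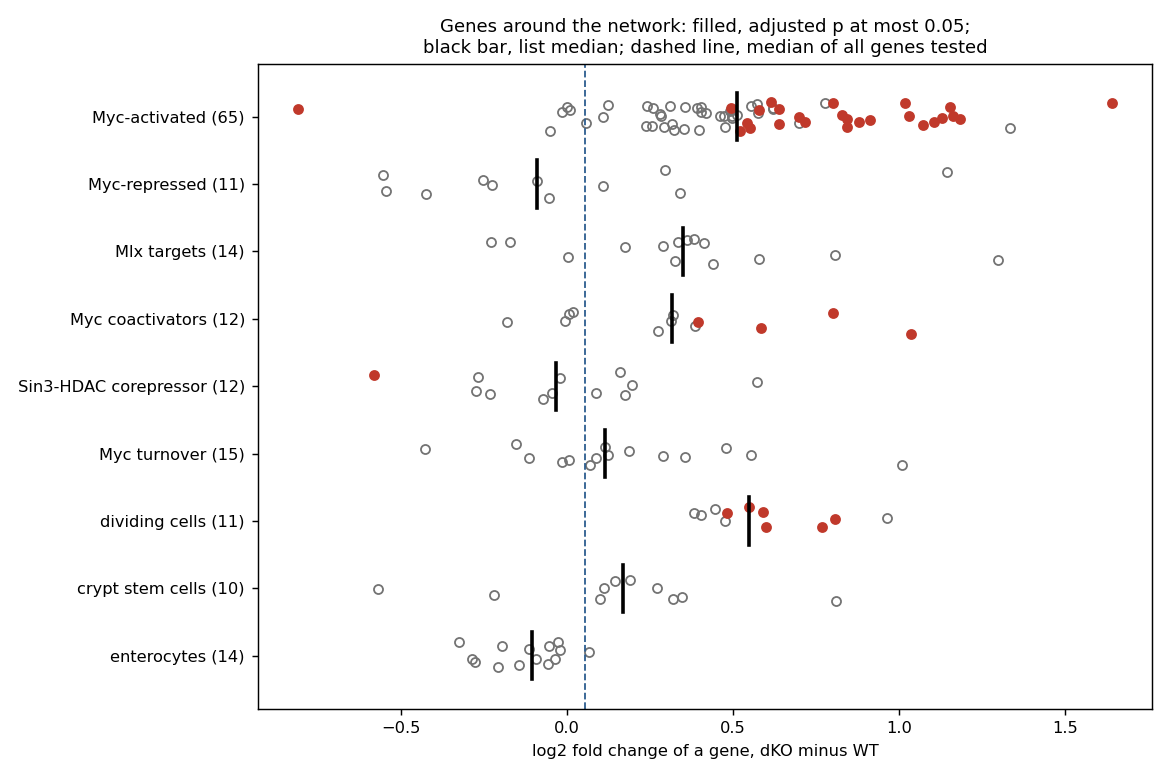
Log2 fold change, double knockout minus wild type, of each measured gene (points) in 9 lists around the network, with the number of genes in brackets; filled points have an adjusted p of at most 0.05, black bars are list medians and the dashed line is the median of all genes tested (0.05). Myc-activated genes and markers of dividing cells lie mostly right of the line with medians of 0.51 and 0.55, while genes repressed by Myc, corepressor subunits and enterocyte markers have medians of -0.09, -0.03 and -0.10.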

How the data were processed

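Jejunal RNA of 6 mice was labelled with biotin, and 1 array was hybridised per mouse. The deposited values are log2 expression levels that, per the submitters' processing notes, the authors made with GCRMA 2.18.0; its settings are not given, and the log2 scale was read from the values. The background that GCRMA removes is modelled from probe sequence, so low values depend on that model. Gene names came from the platform annotation, updated with RefSeq's GRCm38.p6 table (34958 with 1 symbol, 932 with several, 9211 with none). The 64 control probe sets were left out, and the 18013 others that exceeded 4 on 3 or more arrays were tested. Limma 3.58.1 in R 4.3.3 (lmFit, eBayes) compared double knockout with wild type mice (two-sided, Benjamini-Hochberg adjustment); SE and 95% intervals are limma's. Within a group, every 2 arrays differed by over 0.1 in 62.5% or more of the probe sets, so none was a copy. With 3 against 3 mice an exact permutation test cannot go below p = 0.1, so none was used. Each gene of a list was represented by its brightest probe set.

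Named genes were all network probe sets, the targeted genes, for each list at most 4 genes that passed, by p (or 2 where none passed) and the 5 genes nearest to Myc; a gene named outside this rule is marked where it appears. The network and the lists were chosen with earlier results of these data known. Markers of goblet, Paneth, fibroblast, smooth muscle, macrophage, T and B cells were also measured, and 0 genes of these lists passed. In simulated arrays of 18013 probe sets with independent normal noise, the fit recovered 20.9% of 67 probe sets given a log2 change of 0.5. It recovered 68.7% of 67 given a change of 1 and 93.9% of 66 given a change of 2. No other probe set was changed, and 133 were called, against 805 in the data, so these shares need not carry over. Alternatives covered the filter, normalization, low values, array weights, the variance prior, RNA quality, the mouse number, the probe set of a gene and leaving out mice. Figures were drawn with matplotlib 3.10.9.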

Additional observations from a re-analysis of the deposited data

How the results depend on the processing

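The precision is limited by 3 arrays a group, and p-values near the threshold moved with the settings. Against 0 network calls, 25 higher and 1 lower Myc-activated gene, 0 Myc-repressed, 5 partner and regulator and 6 cell type calls and 805 calls in all, the fit without a filter on dim probe sets gave 15 higher activated, 2 partner, 3 cell type and 472 calls in all. The stricter filter gave 2 network, 1 repressed, 10 partner, 10 cell type and 1216 in all, and the trended, robust variance prior 4 network, 43 higher activated, 2 repressed, 10 partner, 12 cell type and 1730 in all. Median centring gave 3 partner calls. With the 3′ to 5′ covariate, 0 network, activated, partner or cell type genes and 17 probe sets in all were called. With the mouse number as a replicate block, the counts were 0 for the network and for higher and lower activated, partner and cell type genes, and 13 in all. Only mice 1 and 3 share numbers across the groups, so the block fit took the difference from these mice alone. The deviations of same-numbered mice from their group means correlated at 0.02 for number 1 and 0.30 for number 3. Mice of unlike number were not compared, so these values cannot decide whether the numbers mark pairs. The main fit took the mice as unpaired. Without both double knockout mouse 3 and wild type mouse 4, chosen after seeing the data, 0 of these genes and 20 probe sets in all were called. Leaving out 1 mouse at a time gave 0 network calls in each fit, 0 to 16 higher and 0 to 1 lower activated, 0 to 2 partner, 0 to 4 cell type and 32 to 435 calls in all.

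Signs turned for Myc with the covariate (-0.063), without double knockout mouse 3 (-0.15, with a range of -0.15 to 0.26 over the fits without 1 mouse) and without both mice (-0.17), for Mxi1 (1425732_a_at) with the block (0.034), without wild type mouse 4 (0.040, range -0.42 to 0.040) and without both mice (0.067), and for Mlx (1425930_a_at) with the covariate (0.033). The median of Myc-repressed genes turned without double knockout mouse 1 (0.025) or wild type mouse 3 (0.0039), with a range of -0.21 to 0.025. The causes were not tested. The other 12 network probe sets kept their sign in all 15 or 16 alternatives that gave them a value. Activated genes without those of replication and division gave 23 higher calls, and without genes on the chromosomes of Ifrd1 and Ifrd2 25. Both alternatives were added after seeing the data, kept the main fit and only took genes off the list. Of the 4 measured activated genes on those chromosomes, 0 had passed in the main fit, so the 25 could not change.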
